A study of Mus musculus with 8 samples.

Results

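A set of 9 genes whose transcripts mark the alveolar type I cell, Ager, Hopx, Pdpn, Aqp5, Rtkn2, Cldn18, Clic5, Akap5 and Vegfa, was followed through RNA sequencing of mouse lung. They were taken as a list of gene symbols, and each symbol matched 1 Ensembl gene of the GENCODE M21 annotation (GRCm38), which made 9 of 52636 genes. All 9 passed the filter on low counts and were among the 20546 genes tested. Total RNA of lung from wild type mice was read in 8 libraries, with 2 for each of the 4 groups. Control mice received phosphate-buffered saline (PBS) through the trachea, while COPD mice, the disease model, had elastase from porcine pancreas (PPE) instilled there, which destroys alveolar walls. Lipopolysaccharide (LPS), which draws in inflammatory cells, followed on several later days. Mice of either kind ate a control diet or a diet with TJ-41 (hochuekkito, a Japanese herbal medicine), begun before the PPE. The study's methods give male C57BL/6 mice for its animal experiments. The labels write the diet as TJ41 in the title and TJ4 in the treatment field. Neither they nor the methods give the age or day at which lung RNA was taken, nor whether the libraries of a group are separate animals. The p-values here therefore measure the spread between libraries, which may be technical.

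Type I cells are thin, widely spread epithelial cells that cover nearly all of the gas exchange surface, while the cuboidal type II cells make surfactant and act as their progenitors. The type I cell seals the airspace with tight junctions, lets water and ions cross, and supplies the capillaries beneath it with vascular endothelial growth factor A, the product of Vegfa. Its program depends on the transcription factor NKX2-1 and on YAP and TAZ, which act through TEAD factors, and loss of alveolar walls in emphysema removes surface that these cells line. None of these genes is read in type I cells alone: Vegfa is transcribed in other lung cells too, Pdpn also marks lymphatic endothelium and mesothelium, and Cldn18 and Hopx are present in other epithelial cells at lower levels. In bulk lung RNA, fewer type I cells and less RNA per cell cannot be told apart.

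The promoter windows of 4 genes are printed because these genes carry the contrasts described here: Vegfa, the gene whose libraries separated COPD mice from control mice, Ager, the most abundant transcript per length, and Pdpn and Cldn18, which were high in the same COPD library. Each is the 250 bases before a RefSeq start site, in GRCm38.p6, 5′ to 3′ on the strand of the gene, in lower case, with capitals where 1 of 3 motifs was found on either strand: GGAATG (TEAD; CATTCC on the other strand), ACGTG (the core of a hypoxia response element; CACGT) and CACGTG (E-box, which contains the hypoxia core on both strands). The windows are chr17:46032378-46032627 on the minus strand for Vegfa, chr17:34597600-34597849 on the plus strand for Ager, chr4:143299565-143299814 on the minus strand for Pdpn and chr9:99717268-99717517 on the minus strand for Cldn18.
Vegfa: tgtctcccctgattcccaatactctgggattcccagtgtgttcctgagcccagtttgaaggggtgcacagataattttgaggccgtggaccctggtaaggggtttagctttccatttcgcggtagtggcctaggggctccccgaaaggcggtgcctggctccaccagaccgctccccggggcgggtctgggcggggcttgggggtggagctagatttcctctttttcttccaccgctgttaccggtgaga
Ager: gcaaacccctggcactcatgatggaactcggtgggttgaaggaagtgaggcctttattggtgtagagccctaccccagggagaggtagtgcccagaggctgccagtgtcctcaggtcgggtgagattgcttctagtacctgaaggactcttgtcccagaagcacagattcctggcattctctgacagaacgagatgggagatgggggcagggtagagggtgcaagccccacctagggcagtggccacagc
Pdpn: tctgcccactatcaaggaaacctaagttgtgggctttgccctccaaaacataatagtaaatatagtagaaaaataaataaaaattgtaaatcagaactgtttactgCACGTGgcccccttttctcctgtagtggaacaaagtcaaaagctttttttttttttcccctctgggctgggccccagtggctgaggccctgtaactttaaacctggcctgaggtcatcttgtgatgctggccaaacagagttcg
Cldn18: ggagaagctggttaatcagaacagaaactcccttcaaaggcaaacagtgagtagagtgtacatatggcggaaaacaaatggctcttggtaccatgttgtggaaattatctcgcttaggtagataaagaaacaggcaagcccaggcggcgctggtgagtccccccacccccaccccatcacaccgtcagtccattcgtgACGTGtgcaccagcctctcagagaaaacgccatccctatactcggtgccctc

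The Pdpn window held an E-box beginning 144 bases before the start site, and the Cldn18 window held the hypoxia core beginning 52 bases before it. The windows of Vegfa and Ager printed here held none of the 3 letter strings. Of the 9 genes, 8 had at least 1 window in the RefSeq table, 11 windows in all. TEAD letters were in 0 of these 11 windows and in 12.6% of all 32851 windows. The hypoxia core was in 7 of 11 and in 16.6% of all, and the E-box was in 3 of 11 and in 6.02% of all. Several of the 11 windows are alternative starts of 1 gene and 3 of them overlap exons, so that they are not independent. A match of letters is a description and not a binding site.

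Each library held 18767295 to 20888042 counts, and the 9 genes had between 2109 and 51241 counts apiece in every library, so that counting error was small beside the spread between libraries. Levels are given as CPM, counts scaled to a common library size with TMM factors, or per kilobase of exon (RPKM) where genes are compared with each other. The 2 libraries of COPD mice fed the control diet lay further apart than those of any other group: the SD over genes of their log2 difference was 0.611, against 0.273 to 0.333 in the other 3 groups. In replicate 2 of that group, the 5129 genes of highest GC content were high (median 0.23 on the centred log2 scale) and the 5129 genes of greatest exon length were low (median -0.17). The same medians were -0.19 and 0.051 in replicate 1. Type II markers summed to 25062 CPM in replicate 1 and 41151 in replicate 2 (range in the other 6 libraries 21273 to 31026). Sftpc made most of that difference: without it the sums were 13591 and 15230.5, inside the 11769 to 15521 of the other 6 libraries, and 8 of 11 type II markers were higher in replicate 2. Airway club and ciliated markers summed to 15195 and 34060.2, or 3615 and 5189.9 without Scgb1a1, with 7 of 9 higher in replicate 2. The averaged values of the 9 genes, and those of some of the other genes named, are given with and without each of these libraries.

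Per kilobase of exon, the 9 genes stood between percentiles 93.6 and 99.9 of all genes tested, so that the markers of the labelled tissue were present in every library. Ager, which encodes the receptor for advanced glycation end products (RAGE) and lies at chr17:34597862-34600936, plus strand, had the highest level, 883 ± 181 RPKM (SD, 8 libraries). Hopx (chr5:77086988-77115121, minus strand) followed with 327 ± 78.7 RPKM, and its lowest library was above the highest of the next gene. Vegfa (chr17:46016993-46032369, minus strand), Cldn18 (chr9:99689461-99717267, minus strand) and Clic5 (chr17:44188584-44280172, plus strand) had 205 ± 28.2, 192 ± 37.7 and 166 ± 20.6 RPKM, with ranges that overlapped between neighbours. Akap5 (chr12:76324891-76334153, plus strand), Aqp5 (chr15:99590782-99594829, plus strand) and Pdpn (chr4:143267431-143299564, minus strand) came next with 80.0 ± 10.7, 76.0 ± 22.8 and 71.1 ± 17.1 RPKM and overlapped in the same way. Rtkn2 (chr10:67979570-68059740, plus strand) was lowest at 45.1 ± 4.10 RPKM, below every library of Pdpn. Between its lowest and its highest library a gene differed by 1.35 times (Rtkn2) to 2.56 times (Aqp5).

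**Figure D1:**
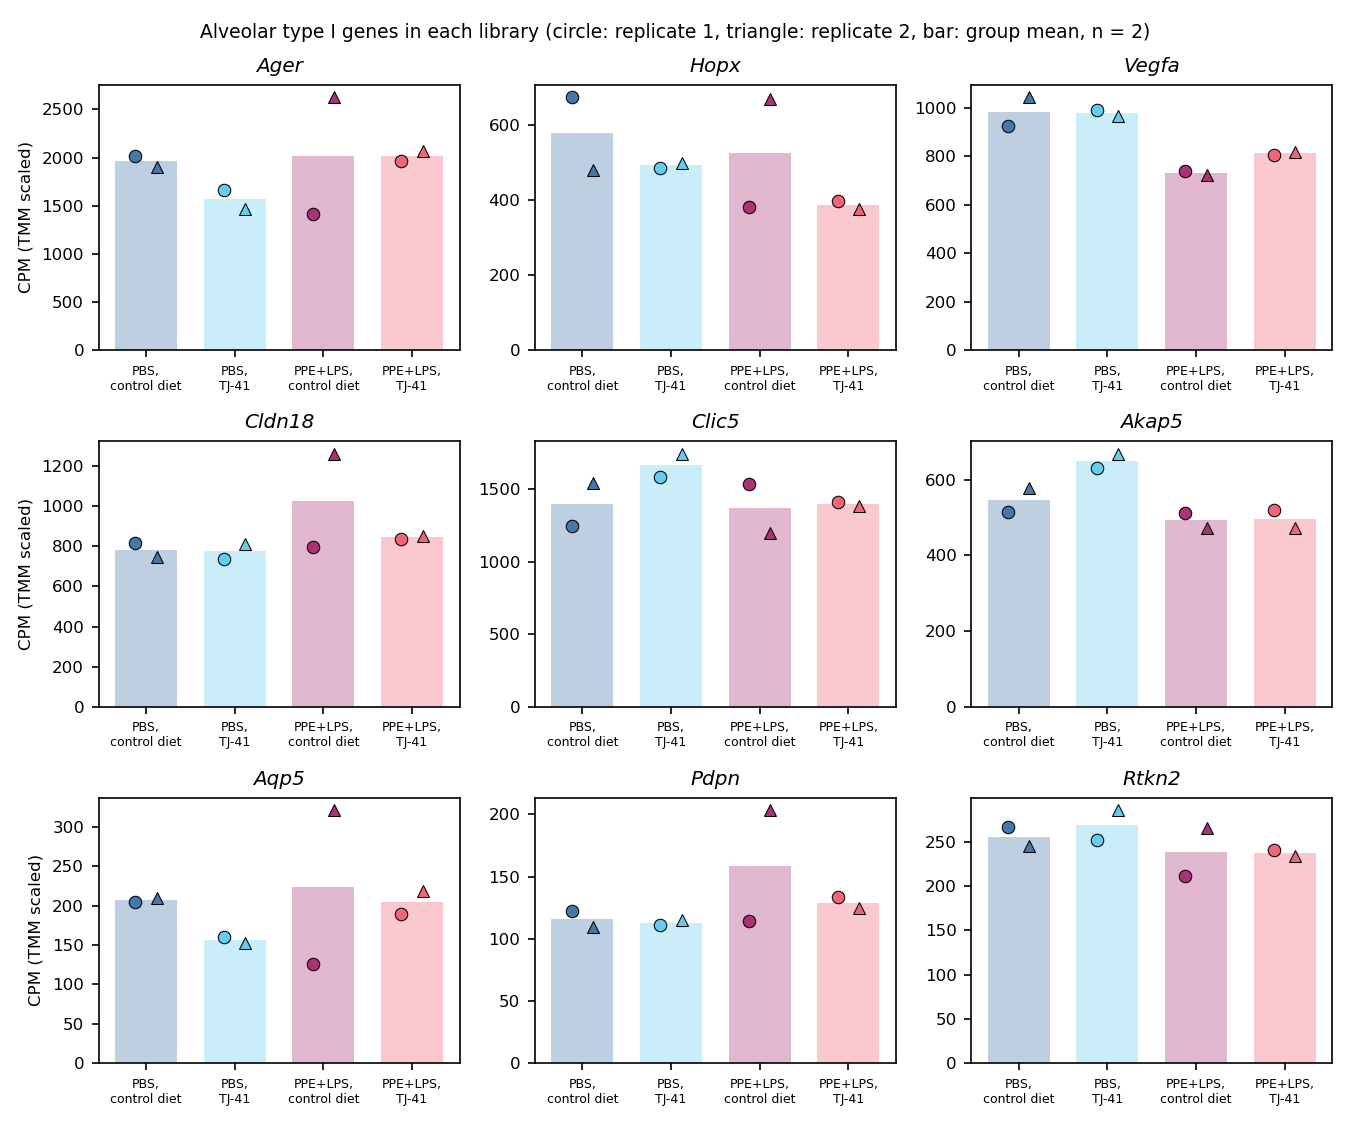
Level of each of the 9 alveolar type I genes in CPM (vertical axes from 0, a different scale in each panel) in the 8 libraries, with circles for replicate 1, triangles for replicate 2 and bars for the group mean (n = 2). Both COPD groups lie below both control groups in the Vegfa panel, and the 2 libraries of COPD mice fed the control diet lie far apart for Ager, Hopx, Cldn18, Aqp5 and Pdpn.

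The study set out to learn how TJ-41 acts in this model, and the comparison of COPD mice with control mice gives the background to that question. Averaged over both diets, 0 of the 9 type I genes were differentially expressed genes (DEGs, with an adjusted p under 0.05 and a log2 fold change over 1 in size) in COPD mice, where 0.443% of all genes tested were. Of the 9, 4 had a positive and 5 a negative log2 fold change, with a median of -0.14 against -0.0017 over all genes. Their adjusted p ran from 0.330 to 0.729 (Benjamini-Hochberg adjustment of edgeR's quasi-likelihood test). At an unadjusted p under 0.05 there were 2 of 9, Vegfa and Akap5, both with negative values, beside 10.4% of all genes tested. Vegfa alone had all 4 COPD libraries below all 4 control libraries, which 3.43% of all genes tested did. No member had them all above, which 3.35% of all genes did. DESeq2 and edgeR's exact test also called 0 of 9. An exact permutation test on 4 against 4 libraries cannot give a two-sided p under 0.0286, and on 2 against 2 none under 0.333.

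Vegfa, the growth factor by which type I cells signal to the capillary bed, was measured at 923 and 1043 CPM in control mice fed the control diet, 992 and 967 in control mice fed TJ-41, 739 and 723 in COPD mice fed the control diet and 806 and 818 in COPD mice fed TJ-41. Every COPD library was below every control library, and the replicates of each group were close, with 1.13 times between them at most. The averaged log2 fold change was -0.35 ± 0.12 (SE), with a 95% interval of -0.61 to -0.083, and an unadjusted p of 0.0157. The adjusted p of 0.330 (Benjamini-Hochberg adjustment of edgeR's quasi-likelihood test) missed the threshold. The log2 fold change was -0.43 ± 0.17 on the control diet and -0.27 ± 0.17 on TJ-41. Vegfa differed little between the 2 discordant COPD libraries. The averaged value was -0.36 without replicate 1 and -0.33 without replicate 2, and -0.38 after correction of every library for exon length and GC content. A fit without 1 of these replicates holds 1 library of COPD mice fed the control diet, so only its log2 fold change is given.

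Akap5 encodes a scaffold that anchors protein kinase A and calcineurin at the membrane. Its CPM were 515 and 579 and, in the same order of groups, 631 and 669, then 513 and 472, then 519 and 471. The TJ-41 control libraries were the highest of all, and the COPD libraries, 471 to 519, overlapped with the lowest control library, 515. The averaged log2 fold change was -0.27 ± 0.12, with a 95% interval of -0.54 to -0.0038 and an unadjusted p of 0.0474, and it shrank to -0.16 after correction for length and GC. Rtkn2 had 266 and 245, 252 and 285, 212 and 266 and 240.5 and 234 CPM in that order, with an averaged value of -0.14 ± 0.12 and overlapping groups. It was -0.060 without replicate 1 and -0.22 without replicate 2 of COPD mice fed the control diet, where Akap5 was at -0.30 and -0.24. Gm16212, an antisense gene, shares 3.89% of the exon bases of Rtkn2 but had 1 to 7 counts in a library.

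Clic5, a chloride intracellular channel family member tied to the actin cytoskeleton, was measured at 1251 and 1542, 1589 and 1747, 1538 and 1203 and 1412 and 1388 CPM. The groups overlapped, and the averaged log2 fold change was -0.14 ± 0.14, or -0.23 without replicate 1 and -0.050 without replicate 2 of COPD mice fed the control diet. Hopx, an atypical homeodomain protein that binds no DNA itself and marks type I cells and their precursors, was measured at 675 and 482, 487 and 499, 382 and 669 and 397 and 376 CPM. Replicate 1 of control mice fed the control diet and replicate 2 of COPD mice fed the control diet were high. The other 6 were between 376 and 499. The averaged value of Hopx was -0.25 ± 0.19, or -0.071 without replicate 1 and -0.47 without replicate 2 of that COPD group. The antisense gene Hopxos shares 27.2% of the exon bases of Hopx, and its 51 to 87 counts a library are a small part of the 7334 to 13051 of Hopx. The strand setting of the counting is not given in the sources used here, so that reads from Hopx and Hopxos cannot be told apart in the shared bases.

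Ager and Pdpn encode proteins of the cell surface, RAGE on the basal membrane and podoplanin on the apical one. Ager was measured at 2020.0 and 1902 CPM in control mice fed the control diet, 1668 and 1465 in control mice fed TJ-41, 1413 and 2627 in COPD mice fed the control diet and 1960.2 and 2065 in COPD mice fed TJ-41. Its lowest and its highest library were the 2 replicates of 1 COPD group, which differed by 1.86 times. The averaged log2 fold change was 0.20 ± 0.19, but 0.39 without replicate 1 and -0.049 without replicate 2, and 0.010 after correction for length and GC. Pdpn had 122 and 109.5, 111 and 115, 114 and 203 and 134 and 124 CPM in the same order. Only replicate 2 of COPD mice fed the control diet, 1.78 times its partner, stood clearly apart from the other 7, which lay between 109.5 and 134. The averaged value of Pdpn was 0.32 ± 0.17, with 0.50 without replicate 1 and 0.093 without replicate 2. Of 2 other cell types with podoplanin, mesothelial markers summed to 105 and 239 CPM in these replicates, with 5 of 6 higher in replicate 2. Lymphatic markers summed to 284 and 501, but to 145 and 141 without Lyve1, with 2 of 5 higher in replicate 2. In the averaged comparison 4 of 5 lymphatic markers had positive values, with a median of 0.56, and 3 of 5 had an unadjusted p under 0.05 (beside 10.4% of all genes), against 0 of 6 mesothelial markers. Their part in the Pdpn values was not tested.

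Aqp5 encodes the water channel of the apical type I membrane, and Cldn18 the claudin of its tight junctions. Aqp5 was measured at 204 and 209, 159.9 and 153, 125 and 321 and 189.6 and 219 CPM, so that the lowest and the highest of the 8 libraries were again the 2 replicates of COPD mice fed the control diet, 2.56 times apart. A difference of this size between these 2 libraries, 1.35 on the log2 scale, lay at percentile 97.2 of the sizes over all genes tested. Averaged over diets the log2 fold change of Aqp5 was 0.25 ± 0.25, with 0.51 without replicate 1, -0.16 without replicate 2 and 0.024 after correction for length and GC. Cldn18 had 815 and 747, 739 and 813, 794 and 1262 and 838 and 851 CPM, of which only replicate 2 of COPD mice fed the control diet was above 851. Its averaged value was 0.26 ± 0.16, with 0.41 without replicate 1 and 0.080 without replicate 2.

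**Figure D2:**
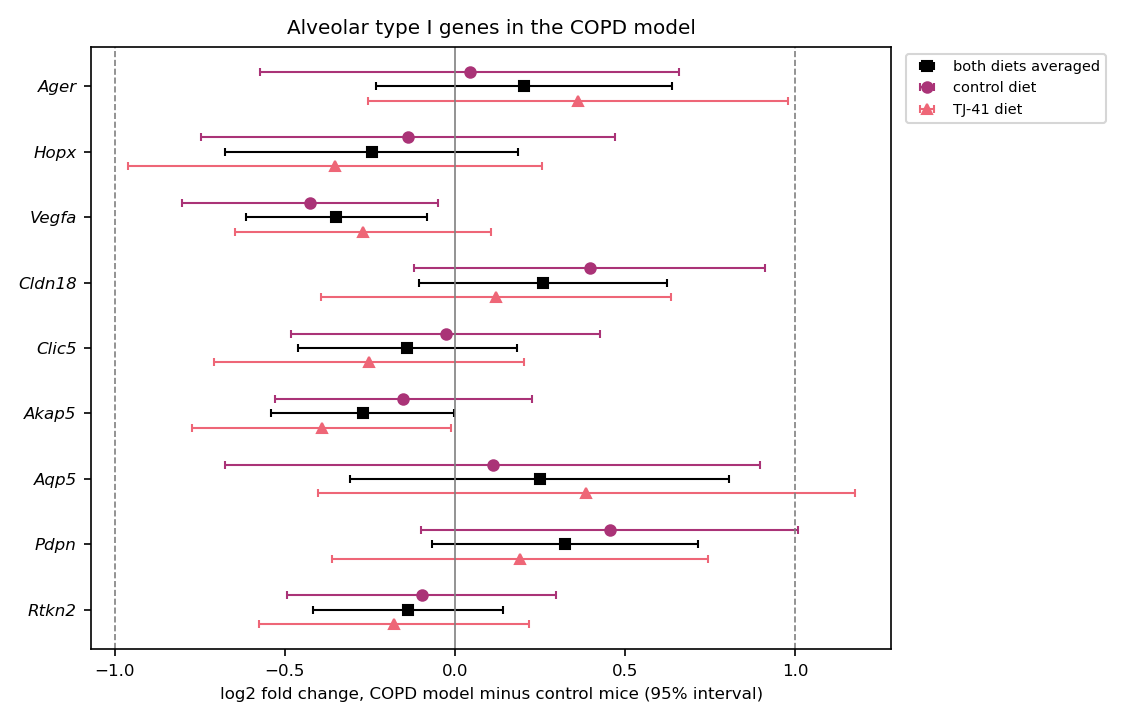
Log2 fold change of each type I gene in COPD mice against control mice (horizontal axis), with bars for the 95% interval of edgeR's quasi-likelihood fit, averaged over both diets (squares), on the control diet (circles) and on the TJ-41 diet (triangles). Dashed lines mark a log2 fold change of 1 in either direction, and the averaged interval lies below 0 for Vegfa (-0.61 to -0.083) and Akap5 (-0.54 to -0.0038) among the 9 genes.

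Between the discordant replicates, 6 of the 9 genes were higher in replicate 2 of COPD mice fed the control diet, and Clic5, Akap5 and Vegfa were lower. The ratios of replicate 2 to replicate 1 were 2.56 for Aqp5, 1.86 for Ager, 1.78 for Pdpn, 1.75 for Hopx, 1.59 for Cldn18 and 1.26 for Rtkn2. Correction for exon length and GC brought Ager to 1.15 and Aqp5 to 1.47, the 2 members with the highest GC content (59.4% and 64.0% in their longest transcripts). The ratios of Hopx, Cldn18 and Rtkn2 widened to 1.97, 1.69 and 1.47, and that of Pdpn was 1.75. Clic5 went from 0.782 to 0.989, Akap5 from 0.921 to 1.17 and Vegfa from 0.978 to 0.911. Without replicate 1, the averaged log2 fold changes of Ager, Aqp5, Cldn18 and Pdpn were 0.39 to 0.51, all short of the limit of 1. That fit holds 1 library of COPD mice fed the control diet, so that its p-values cannot measure the spread in that group. In the other 3 groups the 9 genes differed by 1.40 times at most between replicates, which was Hopx in control mice fed the control diet.

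**Figure D3:**
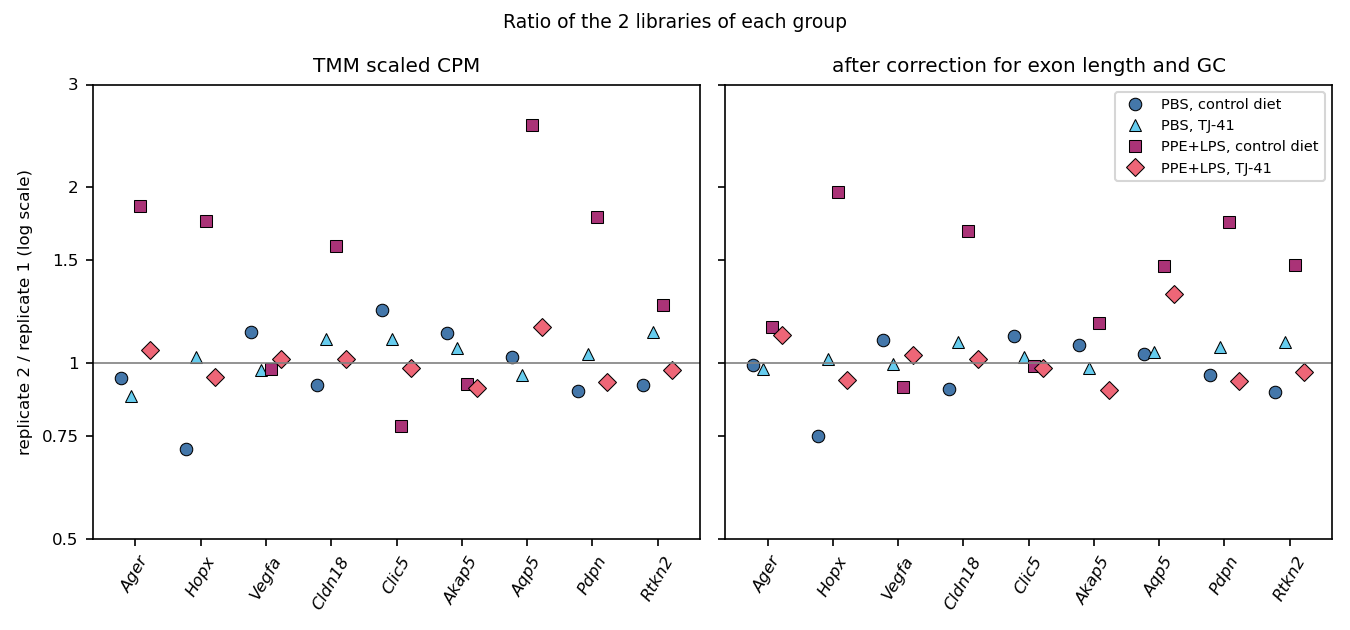
Ratio of replicate 2 to replicate 1 for each type I gene in each of the 4 groups (logarithmic vertical axis, 1 for equal replicates), from TMM-scaled CPM on the left and after correction of every library for exon length and GC content on the right. Before correction the squares of COPD mice fed the control diet reach 2.56 for Aqp5 and 1.86 for Ager, and after it Hopx, Pdpn and Cldn18 still lie at 1.97, 1.75 and 1.69.

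On the control diet alone, 0 of 9 genes were DEGs, beside 0.122% of all genes tested, and the adjusted p ran from 0.569 to 0.994 (Benjamini-Hochberg adjustment of edgeR's quasi-likelihood test). At an unadjusted p under 0.05 there was 1 of 9, Vegfa, at -0.43, beside 7.70% of all genes. Akap5 and Vegfa had both COPD libraries below both control libraries, and 27.6% of all genes had groups that did not overlap in 1 direction or the other. The median log2 fold change of the 9 was -0.028, and between -0.27 and 0.20 on leaving out single libraries. The values of Ager, Aqp5, Hopx, Pdpn, Clic5 and Rtkn2 in this comparison turned with the COPD library used. Aqp5 was at 0.63 without replicate 1 and -0.72 without replicate 2, Ager at 0.42 and -0.47, and Hopx at 0.20 and -0.59. Pdpn went from 0.81 to -0.018, and Clic5 from -0.22 to 0.14. Rtkn2 went from 0.052 to -0.27.

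On TJ-41 the replicates lay closer together, and all 9 genes had COPD and control libraries that did not overlap, as had 56.5% of all genes tested. Ager (0.36 on the log2 scale), Aqp5 (0.39), Pdpn (0.19) and Cldn18 (0.12) were the 4 with both COPD libraries above, and Akap5 (-0.39), Hopx (-0.35), Vegfa (-0.27), Clic5 (-0.25) and Rtkn2 (-0.18) the 5 with both below. Of the 9, 0 were DEGs, beside 0.0779% of all genes, at adjusted p of 0.753 to 0.889 (Benjamini-Hochberg adjustment of edgeR's quasi-likelihood test). At an unadjusted p under 0.05 there was 1 of 9, Akap5, beside 6.56% of all genes. After correction for exon length and GC, Aqp5 stood at -0.0081 and Ager at 0.066, and Cldn18 and Pdpn at 0.16 and 0.19. The same correction put Akap5 at -0.21, Hopx at -0.29, Vegfa at -0.31, Clic5 at -0.099 and Rtkn2 at -0.058. This comparison shares no library with the one on the control diet, but both enter the average.

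The effect of TJ-41 itself was read in either kind of mouse. In control mice 0 of 9 genes were DEGs, as were 0% of all genes tested, and 0 of 9 had an unadjusted p under 0.05, beside 1.64% of all genes (Benjamini-Hochberg adjustment of edgeR's quasi-likelihood test, giving 0.996 to 0.999 for the 9). Mean levels on the control diet and on TJ-41 were 1961 ± 83.2 and 1566 ± 144 CPM for Ager (SD, n = 2), 206 ± 3.63 and 156 ± 5.21 for Aqp5, 1397 ± 206 and 1668 ± 112 for Clic5 and 547 ± 45.5 and 650.0 ± 26.9 for Akap5. In these 4 genes the libraries of the 2 diets did not overlap, Ager and Aqp5 being lower on TJ-41 and Clic5 and Akap5 higher, while 38.2% of all genes had diets that did not overlap. Their log2 fold changes were -0.32 ± 0.27, -0.40 ± 0.35, 0.26 ± 0.20 and 0.25 ± 0.17, and the other 5 genes lay between -0.23 (Hopx) and 0.073 (Rtkn2). After correction for length and GC, Ager was at -0.11, Aqp5 at -0.12, Clic5 at 0.12 and Akap5 at 0.11.

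In COPD mice the diet also left 0 of 9 genes as DEGs, beside 0.00487% of all genes, and 0 of 9 at an unadjusted p under 0.05, beside 4.10% of all genes (Benjamini-Hochberg adjustment of edgeR's quasi-likelihood test, giving 0.991 to 1.0 for the 9). Vegfa was the single gene of the 9 whose diets did not overlap in COPD mice, with both libraries on TJ-41 above both on the control diet and a log2 fold change of 0.15 ± 0.17. Of all genes, 29.0% had diets that did not overlap. Hopx had the value furthest from 0, -0.44 ± 0.27, with -0.79 without replicate 1 and 0.013 without replicate 2 of the control diet group. Pdpn, Cldn18 and Aqp5 turned from -0.65, -0.58 and -0.65 without replicate 1 to 0.17, 0.087 and 0.70 without replicate 2, and Ager turned from -0.38 to 0.51. The difference of the diet effects, COPD minus control, was tested as an interaction. It gave 0 DEGs among the 9 and 0% of all genes, 0 of 9 at an unadjusted p under 0.05 beside 3.27% of all genes, and an adjusted p of 0.999 for each of the 9 (Benjamini-Hochberg adjustment of edgeR's quasi-likelihood test). The interaction ran from -0.27 for Cldn18 to 0.32 for Ager, with standard errors of 0.24 to 0.49. It changed sign with the library left out in 6 of the 9 genes. Aqp5 was at -0.24 without replicate 1 and 1.12 without replicate 2 of COPD mice fed the control diet. In the same order Ager was at -0.049 and 0.84, Pdpn at -0.61 and 0.22, Cldn18 at -0.56 and 0.11, Hopx at -0.55 and 0.25, and Rtkn2 at -0.23 and 0.10.

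Another 20 genes known from type I cells were read beside these 9. None of the 20 was a DEG in the averaged comparison, and the smallest adjusted p was 0.266 (Benjamini-Hochberg adjustment of edgeR's quasi-likelihood test). Of them, 9 had an unadjusted p under 0.05, 4 with positive and 5 with negative values, which was 45.0% of the list beside 10.4% of all genes tested, at a median of -0.058 over the list. Of the 4 most abundant per length, Cav1, which builds caveolae and is also strong in endothelium, had a log2 fold change of -0.32 ± 0.14, Gprc5a, an orphan G protein-coupled receptor, 0.15 ± 0.18, Emp2, a tetraspan membrane protein, -0.27 ± 0.12, and Cyp2b10, a cytochrome P450, 0.35 ± 0.14. Gprc5a was at 0.33 and -0.095, and Cyp2b10 at 0.45 and 0.24, without replicate 1 and without replicate 2 of COPD mice fed the control diet. Gramd2 had the smallest p, with 167 and 196, 167 and 185, 206 and 268 and 246 and 242 CPM in the order of groups used above. Its log2 fold change was 0.43 ± 0.13. All 4 COPD libraries were above all 4 controls in 3 of the 20 genes, Gramd2 and Cyp2b10 among them, beside 3.35% of all genes tested. All 4 were below in 1 of the 20, Emp2, beside 3.43% of all genes tested. The basement membrane chains Col4a3 (-0.35 ± 0.15) and Col4a4 (-0.31 ± 0.12), the sodium channel subunit Scnn1g (-0.31 ± 0.12) and the secreted factor Ndnf (-0.35 ± 0.15) had negative values.

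Genes that act on or beside the type I program were read in the same fit. Among 14 transcription factors and Hippo pathway genes, 2 had an unadjusted p under 0.05 (14.3%, beside 10.4% of all genes), both with positive values. They were Nkx2-1, the lineage factor of the lung epithelium, at 0.45 ± 0.18, and the YAP target Ankrd1 at 0.63 ± 0.17, while the abundant Tead1 and Wwtr1 (TAZ) were at -0.20 ± 0.14 and -0.15 ± 0.11. Nkx2-1 was high in 1 library, replicate 2 of COPD mice fed the control diet, with 283 CPM against 118 to 161 in the other 7, and its value was 0.64 and 0.21 without replicate 1 and without replicate 2. Among 11 genes of transitional alveolar epithelium, Itgb6, an integrin subunit that activates TGF-beta, was at -0.63 ± 0.17 and Gdf15, at 0.365 to 1.59 CPM, was at 1.04 ± 0.45. Itgb6 was the 1 gene of the 11 with all COPD libraries below all controls, beside 3.43% of all genes. The abundant Lgals3 and Krt19 were at 0.40 ± 0.18 and -0.0055 ± 0.20. All 11 transitional genes were higher in replicate 2 than in replicate 1 of COPD mice fed the control diet, which was not set beside the share of all genes. Without replicate 1 and without replicate 2, Gdf15 was at 1.39 and 0.35, Itgb6 at -0.49 and -0.81, Lgals3 at 0.54 and 0.23 and Krt19 at 0.19 and -0.27. Among 11 junction genes beside Cldn18, 2 had an unadjusted p under 0.05 (18.2%, beside 10.4% of all genes), and Ocln was 1 of them at -0.25 ± 0.10. In 3 of the 11, Ocln among them, all COPD libraries were below all controls, beside 3.43% of all genes. Tjp1 and Cdh1 were at -0.17 ± 0.17 and -0.028 ± 0.12. Among 9 genes of water and ion transport beside Aqp5, Scnn1g is given above, Aqp3, at 0.922 to 2.41 CPM, was at 0.72 ± 0.31, and Aqp1 was at -0.00084 ± 0.15. Aqp3 was at 0.95 and 0.39, Aqp1 at 0.13 and -0.15, Tjp1 at -0.37 and -0.0045 and Cdh1 at -0.0091 and -0.040 without replicate 1 and without replicate 2. Of these 4 lists, 0 genes were DEGs, with smallest adjusted p of 0.208, 0.201, 0.376 and 0.406 (Benjamini-Hochberg adjustment of edgeR's quasi-likelihood test).

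Partners of Vegfa in the capillary were read next. Kdr, the main signalling receptor for the Vegfa product on endothelium, was measured at 476 and 656, 645 and 619, 517 and 354 and 427 and 428 CPM. Its groups overlapped, through replicate 1 of control mice fed the control diet and replicate 1 of COPD mice fed the control diet, and its averaged log2 fold change was -0.47 ± 0.16 with an unadjusted p of 0.0169. Of 9 other ligands and receptors Kdr was the 1 gene with an unadjusted p under 0.05, and the co-receptor Nrp1 and the ligand Pgf were at -0.14 ± 0.18 and 0.47 ± 0.26. Without replicate 1 and without replicate 2 of COPD mice fed the control diet, Kdr was at -0.62 and -0.34, Nrp1 at -0.34 and 0.024 and Pgf at 0.72 and 0.11. Aerocytes are the capillary cells that lie opposite type I cells and depend on Vegfa. Of their 6 markers, 5 had negative values with a median of -0.42. Apln, the ligand of the apelin receptor, named after its values were seen, had 58.0 and 66.5, 54.8 and 60.4, 39.9 and 34.0 and 30.6 and 23.3 CPM, with every COPD library below every control. Its log2 fold change was -0.92 ± 0.13 at an adjusted p of 0.0225 (Benjamini-Hochberg adjustment of edgeR's quasi-likelihood test), past the false discovery rate but short of the fold limit. The adjusted p was 0.0545 with a replicate block and 0.0582 to 0.175 without any 1 of the 4 control libraries or of the 2 COPD libraries on TJ-41. The 6 aerocyte markers summed to 648 to 731 CPM in control libraries and 550.3 to 624 in COPD libraries, and 9 general endothelial markers to 4368 to 5139.8 and 4124 to 4639. The part of such cells in the Vegfa values was not tested.

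Vegfa is also a target of the hypoxia-inducible factors, and 11 other genes of that response were read. Of these 11, 8 had positive and 3 negative values in the averaged comparison, with a median of 0.20. Adm, which encodes the vasodilator adrenomedullin, was the 1 DEG of the 11, beside 0.443% of all genes tested. It fell in COPD mice, with 14.2 and 8.98, 10.7 and 9.35, 2.14 and 4.56 and 3.60 and 3.48 CPM. Its averaged log2 fold change was -1.64 ± 0.26 at an adjusted p of 0.0379 (Benjamini-Hochberg adjustment of edgeR's quasi-likelihood test). The call was lost with a replicate block (0.0796) and without any 1 of the 4 control libraries or of the 2 COPD libraries on TJ-41 (0.0892 to 0.216). Without replicate 1 and without replicate 2 of COPD mice fed the control diet, the log2 fold change of Adm was -1.42 and -1.96. Ndrg1 was higher in all COPD libraries, 0.96 ± 0.19, at an adjusted p of 0.0890 (Benjamini-Hochberg adjustment of edgeR's quasi-likelihood test). It was at 1.16 without replicate 1 and 0.70 without replicate 2 of COPD mice fed the control diet. Of the 11 genes, 4 had an unadjusted p under 0.05 (36.4%, beside 10.4% of all genes tested), 3 with positive values and 1 with a negative value. The factors themselves, Epas1 and Hif1a, were at -0.25 ± 0.16 and 0.075 ± 0.17, or -0.15 and -0.36 for Epas1 and -0.16 and 0.26 for Hif1a without replicate 1 and without replicate 2. Of 9 ligands and partners of RAGE, S100a4 had an unadjusted p under 0.05 at 0.72 ± 0.25. S100a11 was at 0.46 ± 0.21, and Diaph1, which binds the tail of RAGE inside the cell, was at -0.15 ± 0.14. In the same 2 settings S100a4 was at 0.93 and 0.43, S100a11 at 0.67 and 0.17 and Diaph1 at -0.27 and -0.035.

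**Figure D4:**
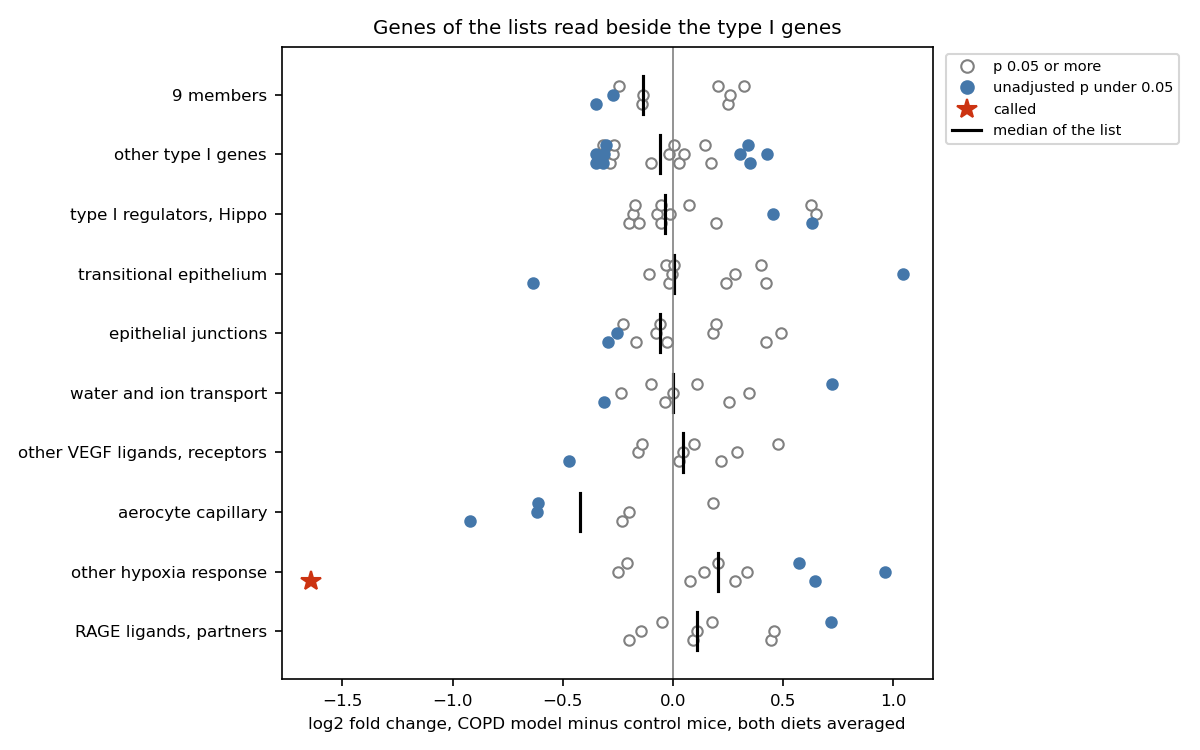
Log2 fold change, COPD mice minus control mice averaged over both diets, for each gene of 10 lists (1 row each, points spread vertically for legibility), with open circles for an unadjusted p of 0.05 or more, filled circles for p under 0.05, a star for a DEG and a line for the median. The 9 type I genes lie between -0.35 and 0.32, the aerocyte markers have the lowest median (-0.42), and Adm of the hypoxia list is the 1 DEG.

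Markers of other lung cells were summed in each library to set beside these values, and no marker was at 0 counts in any library. Type II markers, led by Sftpc and Sftpa1, summed to 21273 to 29467 CPM in control libraries and 25062 to 41151 in COPD libraries, and airway markers, led by Scgb1a1 and Cyp2f2, to 21137 to 25017 CPM in control libraries and 15195 to 34060.2 in COPD libraries. The sums in the same order were 865 to 1050.3 and 1255 to 1837 for macrophage markers (Chil3 and Csf1r the most abundant), 4192 to 5359 and 3767 to 5738 for fibroblast markers (Inmt and Npnt), 255 to 408 and 456 to 1067 for T, B and plasma cell markers (Jchain among them), and 179 to 275 and 108 to 388 for neutrophil markers (S100a9 and Csf3r). They were 172 to 208 and 105 to 309 for mesothelium (Msln and Upk1b), 328 to 479 and 284 to 501 for lymphatic endothelium (Lyve1 and Flt4), 392 to 590.2 and 278 to 728 for heart muscle (Myh6 and Actc1) and 2792 to 3505 and 2850.1 to 3745 for nuclear and immediate early RNAs (Neat1 and Malat1). General endothelium was led by Ptprb and Cdh5, and aerocytes by Prx and Tbx2. Each of several sums was carried by 1 gene. Without Jchain the lymphoid sum was 201 to 223 in control libraries and 136 to 239.8 in COPD libraries, and without Chil3 the macrophage sum was 482 to 609.9 and 421 to 685. Without Lyve1 the lymphatic sum was 94.0 to 158 and 141 to 206, with the counts of lymphatic markers given beside Pdpn. Among the markers, Jchain (2.64 ± 0.32) and Cd177 (1.80 ± 0.30) rose as DEGs at adjusted p of 0.00969 and 0.0442 (Benjamini-Hochberg adjustment of edgeR's quasi-likelihood test). The neutrophil markers did not rise with Cd177: of the 8 tested, 3 had positive and 5 negative values, with a median of -0.083. Cd177 was the 1 of these 8 with an unadjusted p under 0.05 (12.5%, beside 10.4% of all genes tested). Both calls depended on the libraries. Leaving out any 1 control library took the adjusted p of the same test to 0.0780 to 0.116 for Jchain and 0.170 to 0.298 for Cd177, whose call was also lost without either COPD library on TJ-41 (0.0984 and 0.113), with a replicate block (0.0507) and with only genes of a mean of at least 1 CPM (0.0508). The part of these cells in the type I values was not tested.

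Summed over the 9 type I genes, the libraries held 6629 to 6859 CPM in control mice and 5831 to 7746 in COPD mice, and the lowest and the highest sum were the 2 replicates of COPD mice fed the control diet. The mean of the 9 centred log2 levels was -0.23 and 0.26 in those replicates and between -0.052 and 0.055 in the other 6 libraries. As a description, the 5 genes whose levels over the 8 libraries were most like that mean, by Pearson's r, were Cldn7 (0.991), Mustn1 (0.988), Gm4751 (0.981), Atf5 (0.981) and Jkamp (0.979). Cldn7, a claudin that is also among the junction genes above, had 25.0 and 25.3 CPM in control mice fed the control diet, 24.0 and 24.3 in control mice fed TJ-41 and 17.9 and 33.1 in COPD mice fed the control diet. Both libraries of COPD mice fed TJ-41 were at 21.9 or just above. The likeness therefore rests on the same 2 libraries.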

How the data were processed

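Total RNA of mouse lung was read in 8 libraries, with 2 for each of the 4 groups, which were taken from the sample titles. The authors deposited raw read counts per Ensembl gene, not normalized. The submitters' processing notes name HISAT2, edgeR and the mm10 build, and the study's methods name CLC Genomics Workbench. The counting program, annotation release, strand setting and treatment of reads that map to several places are not given in the sources used here.

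Gene names, positions and exon lengths came from GENCODE M21 (GRCm38), which held 52489 of the 52636 gene identifiers, and promoter windows from RefSeq (GRCm38.p6). Counts of 18767295 to 20888042 a library were fitted in R 4.3.3 with edgeR 4.0.16 (limma 3.58.1): filterByExpr (count at least 10, total at least 15) left 20546 genes, TMM scaling was applied, and 1 model over all 4 groups (4 residual degrees of freedom, no covariates) gave 6 contrasts by quasi-likelihood tests with Benjamini-Hochberg adjustment. DEGs had an adjusted p under 0.05 and a log2 fold change over 1 in size. The 6 contrasts are the COPD comparison averaged over diets and on each diet, the diet comparison in either kind of mouse, and the difference of the last 2. A count of 0 allows up to 3 counts, or 0.153 to 0.162 CPM, for counting error only. The fits were first tested on simulated data in which 200 genes differed.

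The alternatives were RLE factors, library size alone, 2 other filters on low counts, edgeR's exact test, DESeq2 1.42.0, fits of only the groups compared, a replicate block, offsets from a loess fit (span 0.5) on exon length and GC content, and leaving out each library. The text names all 9 genes. From 20 other type I genes it names the 4 most abundant per length and up to 6 with the smallest unadjusted p under 0.05. From 7 lists of related genes it names the 2 most abundant and the 2 with the smallest p, from marker lists of other cell types the 2 most abundant, from every list each DEG, and the 5 genes most correlated with the mean of the 9. Some genes that this rule names are not reported here. The 9 genes and all lists were chosen with earlier results of these data known.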

Additional observations from a re-analysis of the deposited data

How the results depend on the processing

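Of the 9 type I genes, 0 were DEGs in all 6 comparisons under every alternative, while 709 recomputed log2 fold changes kept their sign and 47 turned. The replicate numbers did not pair the libraries, since the differences between replicates correlated at -0.256 to 0.158 between groups. With the replicate number as a block, 1 of the 9 genes in the averaged COPD comparison and 0 on TJ-41 had an unadjusted p under 0.05. That count was also 1 in the averaged comparison after length and GC correction, 0 on the control diet with only the groups compared, 0 on TJ-41 with library size alone, and, with only the groups compared, 6 on TJ-41 and 1 for the diet in control mice. Leaving out single libraries gave 0 to 6 averaged, 0 to 5 on the control diet, 0 to 3 on TJ-41, 0 to 2 and 0 to 4 for the diet in control and in COPD mice, and 0 to 2 for the difference of diets. None of these counts under the alternatives is set beside the share of all genes in the same fit, so that they do not single out the type I genes. The number of DEGs over all genes also moved between these fits, as given below. A fit without 1 library holds 1 library in that group, so that its p-values cannot measure the spread there. The cause of the changes in these counts was not tested.

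Signs turned as follows on the log2 scale. On the control diet, Ager was at -0.024 with library size alone and -0.046 after length and GC correction, and Clic5 at 0.020 after it. That correction put Aqp5 on TJ-41 at -0.0081, and for the diet in control mice Vegfa at 0.0042 and Rtkn2 at -0.023. For the diet in COPD mice, Ager was at 0.060 with library size alone, 0.00214 with all genes of at least 1 count, 0.000583 with genes of a mean of 1 CPM, 0.0072 with only the groups compared, 0.018 with the replicate block and 0.0055 after correction, and Rtkn2 at 0.044 with library size alone and 0.0017 with only the groups compared. Aqp1 was at 0.0045 in the averaged exact test.

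Leaving out single libraries, the averaged values ran from -0.049 to 0.39 for Ager, -0.16 to 0.51 for Aqp5, -0.096 to 0.054 for Cdh1, -0.15 to 0.13 for Aqp1, -0.27 to 0.19 for Krt19, -0.16 to 0.26 for Hif1a, -0.34 to 0.024 for Nrp1 and -0.095 to 0.33 for Gprc5a. Without a change of sign, those of Col4a3 ran from -0.46 to -0.21 and those of Tead1 from -0.30 to -0.075. On the control diet they ran from -0.47 to 0.42 for Ager, -0.22 to 0.14 for Clic5, -0.018 to 0.81 for Pdpn, -0.27 to 0.052 for Rtkn2, -0.72 to 0.63 for Aqp5 and -0.59 to 0.20 for Hopx. For the diet in control mice they ran from -0.093 to 0.081 for Vegfa, -0.12 to 0.045 for Pdpn, -0.077 to 0.052 for Cldn18, -0.017 to 0.15 for Rtkn2 and -0.46 to 0.032 for Hopx. For the diet in COPD mice they ran from -0.38 to 0.51 for Ager, -0.060 to 0.080 for Akap5, -0.14 to 0.22 for Clic5, -0.65 to 0.17 for Pdpn, -0.58 to 0.087 for Cldn18, -0.16 to 0.16 for Rtkn2, -0.65 to 0.70 for Aqp5 and -0.79 to 0.013 for Hopx. The median of the 9 ran from -0.38 to 0.14 there and from -0.23 to 0.15 for the difference of diets.

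Over all genes, the averaged 91 DEGs became 249 with DESeq2, 317 with the exact test, 278 with all genes of at least 1 count and 15 to 873 without single libraries. With DESeq2 the 25 on the control diet became 171, the 16 on TJ-41 118, the 0 and 1 for the diet 10 and 12, and the 0 for the difference 17. With 2 libraries a group, the spread rests on 4 residual degrees of freedom.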
